A study of Homo sapiens with 4 samples.

Results

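Of the 2063 regions listed as reduced in H3K4me3 in MDA-MB-231 cells given 2.5 μM Tat-SID, 317 (15.37%, 95% confidence interval 13.84 to 17.0%) lay at the 5′ ends of protein-coding genes that are transcribed in opposite directions. These regions were selected on the H3K4me3 comparison itself: each was on the list of reduced regions and had, within 3 kb, the starts of at least 2 protein-coding genes on opposite strands. Together they had the starts of 675 coding genes inside them or within 3 kb. Across the genome, 1917 of 20176 coding genes (9.50%) carried a reduced region of any kind no farther than 3 kb from their start. That share is given as background, and nothing is read from it about the divergent regions, because the same list chose them. On the list of regions reduced at 1 μM Tat-SID, 8 of 141 met the same rule, and on the list of regions increased at 2.5 μM, 0 of 3 did. The direction of each list is as its name and the study give it, and the positions alone cannot show it.

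MDA-MB-231 is an established human cell line from triple negative breast cancer. H3K4me3, trimethylation of lysine 4 of histone H3, is a mark of nucleosomes at active promoters. Tat-SID is a decoy peptide that joins a nuclear localization signal from the HIV-1 protein Tat to the SIN3 interaction domain of MAD and occupies the PAH2 domain of the SIN3 scaffold. Mononucleosomes from untreated cells and from cells given Tat-SID at 1 μM or at 2.5 μM were precipitated with an H3K4me3 antibody, with 1 library for each of these 3 groups and 1 library of input DNA from the same line. The available lists give the position of each region and no level, so they say where the authors called a change and not how large it was, no condition has a replicate, and nothing could be tested between conditions.

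Divergent promoters are a common arrangement of mammalian genes. The 2 genes lie head to head on opposite strands, their starts often share a CpG island and a nucleosome-depleted stretch of DNA, and RNA polymerase leaves that stretch in both directions. In such promoters H3K4me3 marks the first nucleosomes of either gene. Pairs of DNA repair, mitochondrial, housekeeping and replication-dependent histone genes are known to be arranged this way, and the DNA between the starts is often rich in sites for ETS factors such as GABPA, for NRF1, for SP1 (the GC box) and for NFY (the CCAAT box).

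The DNA between head-to-head starts is shown for pairs with starts at most 300 bp apart, first the 3 such pairs that also carried a reduced region at 1 μM and PPAT/PAICS, a textbook bidirectional promoter of genes for enzymes of purine synthesis. Each sequence is the plus strand of GRCh37 (hg19) from the start of the minus-strand gene, named first, to the start of the plus-strand gene, so transcription leaves both ends outward. Capitals mark matches, on either strand, to the CCAAT box itself, which NFY binds, to the GC box of SP1 (GGGCGG), the E-box of MYC, MAX and MXD (CACGTG), the TATA box (searched as TATAAA) and the letters bound by GABPA (CCGGAAGT), NRF1 (GCATGCGC), YY1 (AAGATGGC), CREB (TGACGTCA), ZBTB33 (TCTCGCGA) and AP-1 (TGANTCA). No motif of this set is contained in another.
FUBP1/DNAJB4, chr1:78444794-78444859: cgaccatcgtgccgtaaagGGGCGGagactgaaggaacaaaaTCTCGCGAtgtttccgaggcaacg
IKBIP/APAF1, chr12:99038891-99039068: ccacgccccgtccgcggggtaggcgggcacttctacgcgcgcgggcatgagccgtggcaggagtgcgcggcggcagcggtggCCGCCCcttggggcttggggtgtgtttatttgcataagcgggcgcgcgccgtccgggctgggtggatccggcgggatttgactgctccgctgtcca
FGD6/VEZT, chr12:95611258-95611522: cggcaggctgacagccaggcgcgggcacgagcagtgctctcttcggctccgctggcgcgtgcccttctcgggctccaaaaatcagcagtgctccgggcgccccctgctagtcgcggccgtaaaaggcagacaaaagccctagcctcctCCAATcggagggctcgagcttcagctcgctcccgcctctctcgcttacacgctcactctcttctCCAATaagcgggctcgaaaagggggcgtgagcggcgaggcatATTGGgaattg
PPAT/PAICS, chr4:57301781-57301907: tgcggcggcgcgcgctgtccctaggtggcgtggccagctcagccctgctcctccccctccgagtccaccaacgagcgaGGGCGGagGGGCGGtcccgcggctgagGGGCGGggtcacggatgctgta
FUBP1/DNAJB4 carries 1 GC box and 1 ZBTB33 match in 66 bp, IKBIP/APAF1 1 GC box in 178 bp, FGD6/VEZT 3 CCAAT boxes in 265 bp and PPAT/PAICS 3 GC boxes in 127 bp. All printed stretches lie between outermost annotated starts. By the Ensembl canonical transcripts the starts of FUBP1 and DNAJB4 are 25867 bp apart. The next set holds the shortest head-to-head pair of several functional groups, with CBX5/HNRNPA1 and RECQL/GOLT1B added for their dense motifs after the sequences had been seen.
EXOC5/AP5M1, chr14:57735623-57735642: tgcgcgcgccagggaggttg
VPS52/RPS18, chr6:33239824-33239852: tatataatgatatcgcgtcacttccgctc
AURKA/CSTF1, chr20:54967393-54967427: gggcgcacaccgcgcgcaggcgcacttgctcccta
MRPL47/NDUFB5, chr3:179322437-179322478: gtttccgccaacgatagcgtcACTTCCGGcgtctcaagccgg
WDR27/C6orf120, chr6:170102163-170102222: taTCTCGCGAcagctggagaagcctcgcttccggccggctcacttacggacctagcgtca
CBX5/HNRNPA1, chr12:54673917-54673977: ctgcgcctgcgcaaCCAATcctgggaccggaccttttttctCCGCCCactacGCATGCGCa
FBXO8/CEP44, chr4:175204818-175204881: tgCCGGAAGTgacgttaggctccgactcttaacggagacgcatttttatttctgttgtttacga
MRE11/ANKRD49, chr11:94227051-94227145: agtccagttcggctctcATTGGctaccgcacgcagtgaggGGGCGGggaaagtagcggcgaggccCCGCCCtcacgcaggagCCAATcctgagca
RECQL/GOLT1B, chr12:21654603-21654715: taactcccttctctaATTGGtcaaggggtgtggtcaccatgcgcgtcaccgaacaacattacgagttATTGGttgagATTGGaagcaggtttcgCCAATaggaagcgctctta
These stretches range from 20 bp at EXOC5/AP5M1, with no match to any of the motifs, to 113 bp at RECQL/GOLT1B, with 4 CCAAT boxes. CBX5/HNRNPA1 holds an NRF1 match, a GC box and a CCAAT box within 61 bp, and MRPL47/NDUFB5 an ETS match within 42 bp. The last set shows histone pairs, whose intervals are poorer in GC.
H2AC15/H2BC15, chr6:27806153-27806323: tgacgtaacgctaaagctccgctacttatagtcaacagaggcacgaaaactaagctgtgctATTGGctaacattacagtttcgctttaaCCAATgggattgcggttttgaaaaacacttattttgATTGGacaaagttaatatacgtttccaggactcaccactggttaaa
H2BC13/H2AC13, chr6:27775707-27775951: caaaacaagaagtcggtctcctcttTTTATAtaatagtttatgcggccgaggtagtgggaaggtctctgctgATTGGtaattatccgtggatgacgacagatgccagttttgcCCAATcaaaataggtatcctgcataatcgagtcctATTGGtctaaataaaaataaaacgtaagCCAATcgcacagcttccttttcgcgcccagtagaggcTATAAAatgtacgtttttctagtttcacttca
GC content was 39.18% between H2AC15 and H2BC15 and 40.82% between H2BC13 and H2AC13, against 74.8% between PPAT and PAICS. Some other printed stretches were close to the histone pairs, with 41.38% at VPS52/RPS18 and 45.31% at FBXO8/CEP44. H2AC15/H2BC15 holds 3 CCAAT boxes, and H2BC13/H2AC13 holds 4 CCAAT boxes and 2 TATA boxes, 1 near either end.

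Whether the 5′ ends of the genes faced each other was examined first, since the rule asks only for starts on opposite strands. With the start of a gene taken as its outermost annotated transcript start, the closest pair of starts was head to head in 201 of 317 regions (63.41%, 57.84 to 68.72%) and overlapped at the 5′ ends in 116 (36.59%). Head-to-head starts were a median of 167 bp apart (quartiles 85 and 343 bp, range 8 to 4795 bp), and 174 pairs were within 1 kb, 141 within 300 bp and 63 within 100 bp. Overlapping 5′ ends shared a median of 520 bp (quartiles 280 and 1106.5 bp). With the Ensembl canonical transcript of the same genes, 304 of 317 pairs (95.9%) were head to head, 103 of the 116 overlapping pairs among them. That shift is set by construction, since a canonical start can only lie at the outermost start of its gene or downstream of it, which moves the starts of a pair apart. By canonical starts 193 head-to-head pairs were within 1 kb and 111 were over 1 kb apart, with a median of 481.5 bp, an upper quartile of 3510.25 bp and a highest value of 234262 bp. When the rule itself was applied to canonical starts, 264 regions met it. Some regions are thus divergent pairs only through an outermost transcript start, and the distance depended on which transcript was used.

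**Figure D1:**
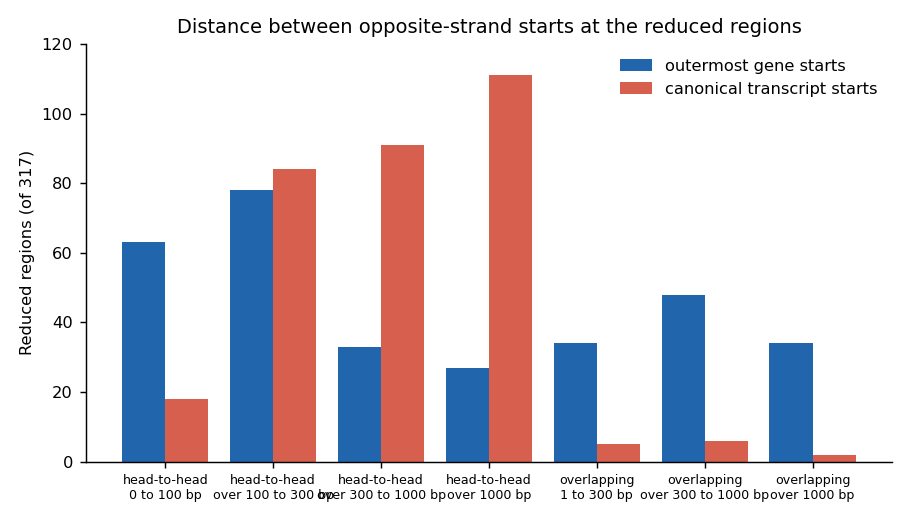
Number of the 317 reduced regions (y axis) by the arrangement and distance of their closest opposite-strand starts (x axis), with blue bars for outermost gene starts and orange bars for canonical transcript starts of the same genes. Overlapping arrangements hold 34, 48 and 34 regions by outermost starts and 5, 6 and 2 by canonical starts.

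Most regions held 1 start on each strand: 283 had 2 coding starts within 3 kb, 29 had 3, 3 had 4 and 2 had 5. The regions with 4 or more were H2BC13/H2AC13/H3C10/H2AC14/H2BC14 and H2BC21/H2AC20/BOLA1/H2AC21 in the histone clusters of chromosomes 6 and 1, DDAH2/MSH5/CLIC1/MSH5-SAPCD1 and C6orf47/CSNK2B/ENSG00000263020/GPANK1/LY6G5B in the major histocompatibility region, and ANKIB1/KRIT1 with 2 unnamed gene models. A readthrough gene, a model that joins neighbouring genes, was present at 12 regions, and 15 had an unnamed gene model in the closest pair. At the limit of the rule, the outermost members were CCT8/MAP3K7CL, CILK1/ENSG00000288646 and PLEKHA4/PPP1R15A, whose farther start lay 2743, 2851 and 2927 bp from the region. TOR1AIP2/TOR1AIP1, COQ5/RNF10 and ZSCAN31/ZKSCAN3 fell just outside as pairs at 3228, 3438 and 3499 bp. COQ5 and RNF10 also lay at a neighbouring region of 5349 bp, which met the rule.

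The reach of the regions past the starts is given as a description, because regions of this length chosen for starts within 3 kb mostly cover them. The region covered both starts of the closest pair in 298 of 317 cases (94.01%, 90.8 to 96.35%), 1 start in 19 and neither in 0, while it covered both canonical starts in 240 (75.71%, 70.6 to 80.33%). It covered both outermost starts in all 174 head-to-head pairs within 1 kb. In these 174 it ran a median of 2312 bp past the minus-strand start (quartiles 1765.5 and 3192.75 bp), on the side of that gene. It ran 2384.5 bp past the plus-strand start (1964 and 3176.25 bp). These lengths are reach past a start and can run beyond the end of a short gene. The reach was at least 1 kb past both starts in 165 of 174 regions (94.83%, 90.41 to 97.61%). The longer side was the plus strand in 96 of 174 (55.17%, 47.46 to 62.7%), so the interval spans an even split.

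**Figure D2:**
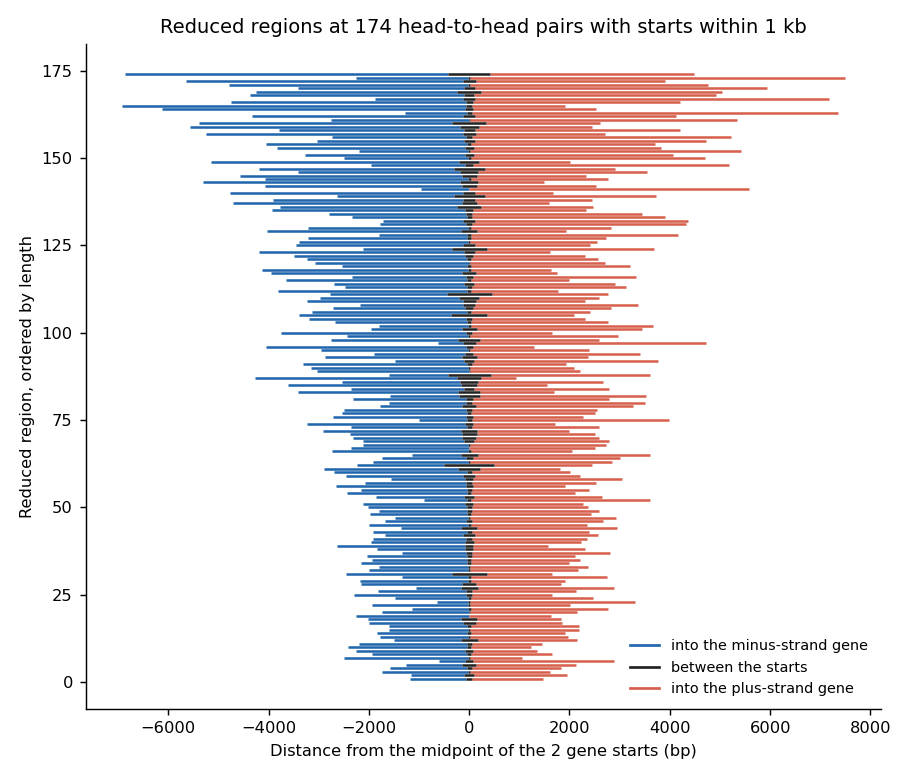
Each line is 1 of 174 reduced regions at head-to-head pairs with starts within 1 kb, ordered by length on the y axis and placed by distance from the midpoint of the starts in bp on the x axis. Blue is the side of the minus-strand gene, black lies between the starts and orange is the side of the plus-strand gene, and all 174 lines cross both starts.

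Regions at a lone coding start had another shape. Of 1135 reduced regions with 1 coding start within 3 kb, 1097 covered that start. These ran a median of 3553 bp downstream of it, on the side of the gene, and 1385 bp upstream. The downstream side was the longer in 1026 of the 1097 (93.53%). Counted without regard to strand, the shorter side was a median of 1366 bp long at lone starts (quartiles 924 and 1880 bp) and 1887.5 bp at the 174 pairs (1588.75 and 2316.25 bp), while the longer side was 3618 bp at lone starts and 3055 bp at pairs. A side at least 2 times as long as the other was found in 766 of 1097 lone starts (69.83%, 67.01 to 72.53%) and in 47 of 174 pairs (27.01%, 20.57 to 34.25%). Regions at pairs were thus more even on their 2 sides, as a description of positions on 1 list. All these lengths were taken from outermost annotated starts. Canonical starts can lie farther downstream, and the reach past them was not measured. The H3K4me3 profile of the untreated cells, which limits where a reduced region can be called, is not part of the lists.

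**Figure D3:**
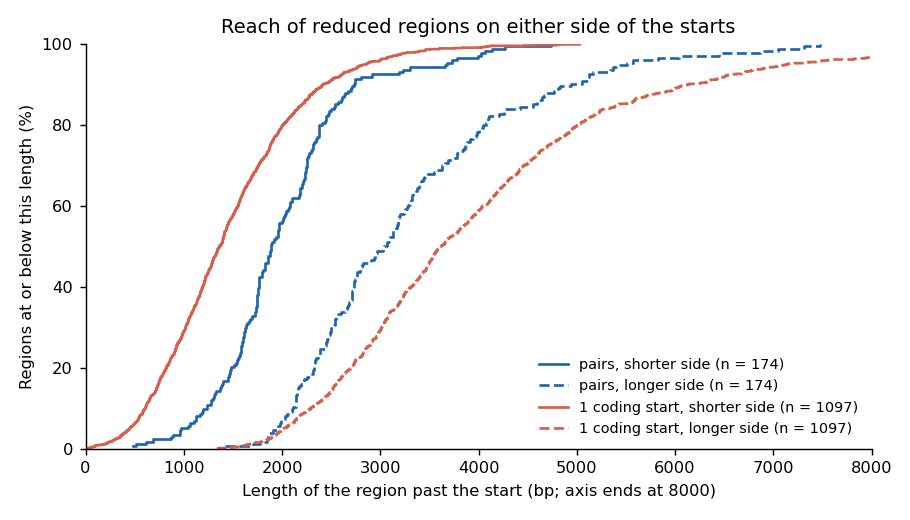
Cumulative share of regions (y axis, %) by the length in bp that the region reached past the start (x axis), for the shorter side (solid) and the longer side (dashed) of 174 head-to-head pairs (blue) and of 1097 lone coding starts (orange). The solid blue line lies to the right of the solid orange line, with medians of 1887.5 and 1366 bp, and the dashed lines are in the reverse order, with medians of 3055 and 3618 bp.

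Some pairs were uneven, and these were chosen after their values had been seen. The region at TRIM66/RPL27A ran 7314 bp into the gene of the ribosomal protein RPL27A and through its last exon, and 1240 bp into TRIM66. At STX10/IER2 it ran 7474 bp on the side of IER2, an immediate early gene that lies wholly inside it, and 2246 bp into STX10, which encodes a syntaxin. At HNRNPDL/ENOPH1 it ran 6864 bp on the side of HNRNPDL, an RNA-binding protein, and 1856 bp into ENOPH1. At LIPA/IFIT5 it ran 5574 bp on the side of IFIT5, an interferon-induced gene, and 963 bp past the outermost start of LIPA, the lysosomal acid lipase. These 2 genes are paired only through outermost starts: their canonical starts are 162793 bp apart, and the region held no exon of the canonical LIPA transcript. In the RNA processing group the region was longer on the side of the listed gene in 8 of 10 pairs that had 1 such gene (interval 44.39 to 97.48%), with medians of 3861.5 bp on that side and 2209 bp on the other. The same count was 4 of 12 for DNA repair genes and 4 of 8 for mitochondrial genes, and all 3 intervals include an even split.

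In length the divergent regions had a median of 5199 bp (quartiles 4349 and 6249 bp, range 2649 to 17749 bp), against 5099 bp for regions with 1 coding start and 4399 bp for the 563 with none. Length is tied to the rule, since a longer region reaches more starts, and is given as a description only. The longest divergent region was at FIBP/CCDC85B/FOSL1 (17749 bp), where FOSL1 encodes the AP-1 subunit FRA1 and lies wholly inside. It was followed by ADAM9/TM2D2 (12799 bp), where ADAM9 is a membrane metalloprotease, and by CBX3/HNRNPA2B1 (11799 bp), a pair known as a CpG island that keeps chromatin open, which encodes the heterochromatin protein HP1-gamma and an RNA-binding protein. The others of the 10 longest were DDAH1/CCN1 (11549 bp), LPXN/ZFP91 (11349 bp), ENSG00000285938/BCL6 (11199 bp), UPK2/BCL9L (9849 bp), STX10/IER2 (9749 bp), FGD6/VEZT and SNX5/MGME1 (9549 bp each). DDAH1/CCN1 and UPK2/BCL9L are paired only through outermost starts: their canonical starts are 115602 and 30373 bp apart. The 5 shortest were FAM227B/DTWD1 (2649 bp), MOB4/HSPD1 (2899 bp), HMGN5/SH3BGRL and GIT2/ANKRD13A (3099 bp each), and C6orf89/PPIL1, which had the same 3199 bp as XRCC4/TMEM167A. In 25 regions at least 1 coding gene lay wholly inside, 37 genes in all, among them the short genes of ribosomal proteins RPS25, RPS12, RPS18 and RPL36AL, the peptide hormone gene ADM and CCN1, which encodes a matricellular protein.

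Few divergent regions were already on the 1 μM list. The 1 μM and 2.5 μM lists share their untreated library as control and are only set side by side. At 1 μM, 100 of 20176 coding genes (0.496%) and 5 of 822 head-to-head pairs (0.608%) had a reduced region at that distance. Of the 317 divergent regions, 8 (2.524%, 1.096 to 4.912%) overlapped a region of the 1 μM list, against 70 of 1135 regions with 1 coding start (6.167%, 4.839 to 7.728%) and 61 of 563 without a coding start (10.83%, 8.39 to 13.7%). The 8 were CBX3/HNRNPA2B1, LPXN/ZFP91, CEP170/SDCCAG8, FIBP/CCDC85B/FOSL1, FGD6/VEZT, FUBP1/DNAJB4/GIPC2, FAM200B/FBXL5 and IKBIP/APAF1. Of these, FUBP1/DNAJB4 and FAM200B/FBXL5 are paired only through outermost starts: their canonical starts are 25867 and 26470 bp apart. The 8 regions span several functions: CEP170 and SDCCAG8 encode centrosome proteins, APAF1 the scaffold of the apoptosome, FBXL5 an iron-sensing ubiquitin ligase subunit, FUBP1 a regulator of MYC transcription, VEZT an adherens junction protein and LPXN a focal adhesion protein. Boundaries were the same at both doses for CBX3/HNRNPA2B1 (11799 bp), FGD6/VEZT (9549 bp) and FUBP1/DNAJB4 (6849 bp). IKBIP/APAF1 had 6049 bp on the 1 μM list and 7649 bp on the 2.5 μM list, and CEP170/SDCCAG8 7849 and 7999 bp. The others were longer at 1 μM: FIBP/CCDC85B/FOSL1 had 18249 and 17749 bp, LPXN/ZFP91 11849 and 11349 bp, and FAM200B/FBXL5 7049 and 6899 bp. Of these 8, 4 were among the 10 longest divergent regions.

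Seen from the genome, 822 pairs of coding genes had head-to-head starts at most 1 kb apart, 1 of them on the mitochondrial genome. A region of the 2.5 μM list lay within 3 kb of 177 of them (21.5%) and covered both starts in the same 177. This background is fixed by the list that chose the regions and nothing is read from it about their count. By gene, 354 of 1644 genes of these pairs (21.53%, 19.57 to 23.6%) and 1181 of 15761 genes with no other coding start within 3 kb (7.493%, 7.087 to 7.915%) had a reduced region. The 2 genes of a pair share a region, so they are not independent and the first interval is too narrow. CpG promoters, defined by a GC content over 50% and a ratio of observed to expected CpG over 0.6 in the 1 kb on either side of the start, made up 70.26% of the first group and 43.37% of the second. Among CpG promoters alone the shares were 21.99% (254 of 1155) and 11.83% (809 of 6836), and among the rest 20.45% (100 of 489) and 4.168% (372 of 8925). The shares rest on all annotated promoters, since the lists do not say which carried H3K4me3 before treatment. The part of starting H3K4me3 in this difference was not tested.

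The difference moved with base composition. Below 65% GC a reduced region covered a larger share of starts in pairs than of lone starts, and from 65% upward the shares were close. At 45 to 50% GC they were 35.47% (61 of 172, 28.33 to 43.11%) and 7.534% (165 of 2190, 6.463 to 8.72%). At 60 to 65% they were 14.52% (44 of 303, 10.75 to 19.0%) and 7.964% (201 of 2524, 6.937 to 9.089%), and at 65 to 70% they were 5.0% (6 of 120, 1.857 to 10.57%) and 6.097% (77 of 1263, 4.841 to 7.561%). Here too the 2 genes of a pair share a region, so the intervals for genes of pairs are too narrow. Counted by pair, with GC content around the midpoint, the share at 45 to 50% GC was 33.73% (28 of 83, 23.72 to 44.95%). Between pairs with and without a reduced region, median GC content was 54.02% and 57.27%, the median CpG ratio 0.7442 and 0.6973, and the median distance between the starts 144 and 126 bp. The share of pairs with a reduced region was 19.44% (63 of 324) at up to 100 bp between the starts, 23.14% (81 of 350) at over 100 and up to 300 bp and 22.3% (33 of 148) at over 300 and up to 1000 bp, with overlapping intervals. By chromosome, 12 of 31 pairs on chromosome 4 and 17 of 53 on chromosome 6 had one, against 6 of 66 on chromosome 19, 3 of 51 on chromosome 17 and 2 of 40 on chromosome 16. The share of all coding genes with a reduced region differed in the same direction. It was 17.35% on chromosome 4 and 16.98% on chromosome 6, against 2.703, 6.56 and 2.439% on chromosomes 19, 17 and 16. Chromosome X differed, with 7 of 23 pairs and 4.948% of coding genes. Pair GC content did not order the chromosomes in the same way: its median was 54.62% on chromosome 4 and 60.27% on chromosome 16, but also 61.17% on chromosome 20 (6 of 23 pairs) and 58.5% on chromosome 10 (8 of 24 pairs).

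**Figure D4:**
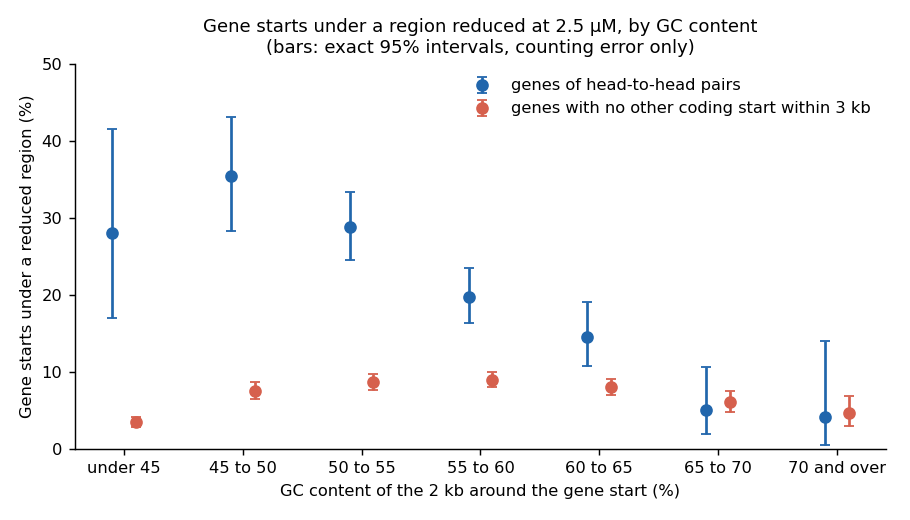
Share of gene starts covered by a region reduced at 2.5 μM (y axis, %) by the GC content of the 2 kb around the start (x axis, %), for genes of head-to-head pairs (blue) and genes with no other coding start within 3 kb (orange), with exact 95% intervals for counting error only. The blue points fall from 35.47% at 45 to 50% GC to 4.082% at 70% and over, while the orange points stay between 3.448 and 8.954%. The blue intervals are too narrow, since the 2 genes of a pair share a region.

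The motifs printed above were counted in windows of 300 bp, centred on the midpoint of a pair or on a lone start, and a match is a description of letters and not of binding. An ETS match for GABPA was found in 28 of 177 pairs with a reduced region (15.82%), 13.51% of the 644 other nuclear pairs, 5.843% of 1181 lone starts with a reduced region and 3.772% of 14580 other lone starts, against 5.108% of all 20163 nuclear coding starts. NRF1 matches had the same order, at 9.605, 8.385, 4.064 and 2.956% (3.645% of all coding starts). Both motifs were more frequent at pairs than at lone starts, and reduced and other pairs had overlapping intervals for both. Pairs and lone starts also differed in where the window was centred and in CpG promoters (70.26 and 43.37% of genes). The part of either in the motif difference was not tested. CCAAT boxes were in 44.63% of reduced pairs (37.17 to 52.28%), 38.98% of other pairs and 33.62% of all coding starts, and the GC box was in 64.41, 73.6 and 54.04%. The windows themselves differed in GC content, with medians of 60.33% at reduced pairs and 65.67% at other pairs. ZBTB33 matches were in 7.345% of reduced pairs and 3.416% of other pairs (1.433% of all coding starts), YY1 matches in 5.65 and 5.901% (3.611%), CREB matches in 6.215 and 3.261% (2.167%), E-boxes in 11.3 and 10.09% (7.777%) and AP-1 matches in 1.695 and 2.795% (5.882%). TATA boxes were in 9.605% of reduced pairs and 3.882% of other pairs (9.225% of all coding starts). Of the 17 reduced pairs with a TATA box 7 were histone pairs: 7 of 8 reduced histone pairs held a TATA box and 8 of 8 a CCAAT box, and without histone genes TATA boxes were in 5.917% of 169 reduced pairs and 3.588% of 641 others.

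**Figure D5:**
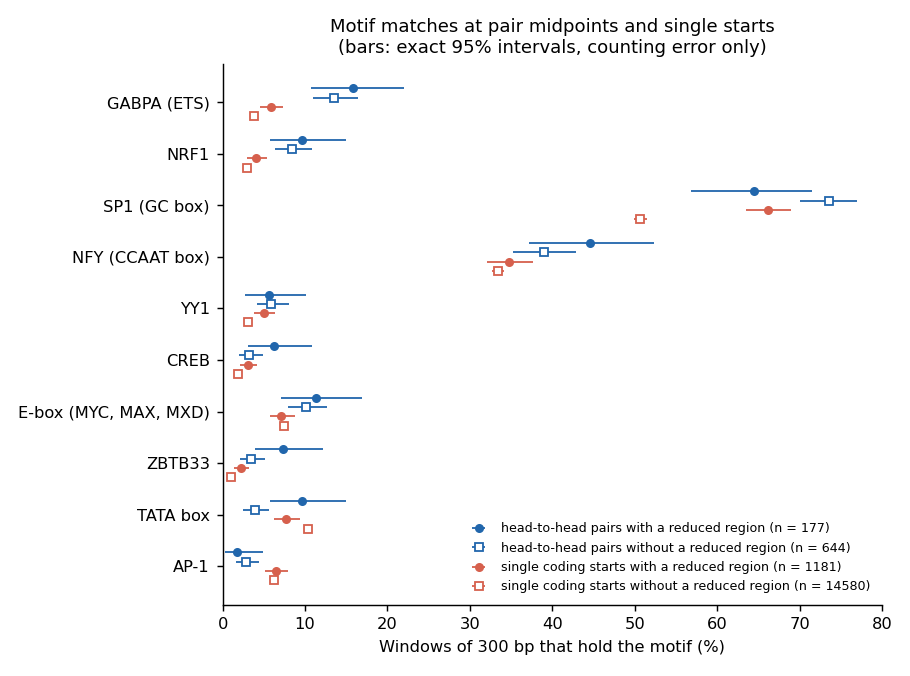
Share of 300 bp windows holding each motif (x axis, %) for 10 motifs (y axis), at head-to-head pairs with (filled blue circles) and without (open blue squares) a reduced region and at lone coding starts with (filled orange circles) and without (open orange squares) one, with exact 95% intervals for counting error only. GABPA matches are at 15.82 and 13.51% in pairs and at 5.843 and 3.772% at lone starts.

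Textbook bidirectional promoters fell on either side. Of 17 such pairs, 5 were divergent reduced regions, and 3 of the 5 are described here. Among all 822 head-to-head pairs the share with a reduced region was 21.5%. The 17 are not a like set, since some are not head to head by outermost starts. COL4A1/COL4A2 overlap by 1345 bp, and the starts of TAP1/PSMB9 and ITGB3BP/EFCAB7 lie 9680 and 70349 bp apart. COL4A6/COL4A5, collagen IV chains of basement membrane, had starts 341 bp apart under a region of 4749 bp that ran 3431 bp into COL4A5 and 976 bp into COL4A6. PPAT/PAICS, whose 127 bp of GC-rich DNA are printed above, had 6249 bp, with 2730 bp in PPAT and 3392 bp in PAICS. NPAT/ATM, which joins a coactivator of histone genes to the kinase that senses DNA breaks, had starts 406 bp apart and 5549 bp. HSPD1/HSPE1, the mitochondrial chaperonin genes, are not paired here because the outermost HSPD1 start lies 16597 bp from that of HSPE1, although a reduced region covered each of these starts. For the other 11 no reduced region lay near either start, the nearest being 113 kb away at TAP1/PSMB9, an antigen processing pair. Among these 11 were COL4A1/COL4A2, SURF1/SURF2, PRKDC/MCM4, ZAR1L/BRCA2, SARS2/MRPS12, TK1/AFMID, TRMT2A/RANBP1 and ITGB3BP/EFCAB7.

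The counts by function are descriptions and were not tested, and distances in these groups are between outermost starts. By canonical starts some pairs lie farther apart, such as FUBP1/DNAJB4 (25867 bp) and LRRC40/SRSF11 (15801 bp). The counts stand against 9.50% of all coding genes with a reduced region, 21.53% of all genes of head-to-head pairs and the 675 of 20176 genes (3.346%) at divergent regions. By this count the replication-dependent histone genes had the highest share of genes with a reduced region among the groups. Of 68 genes, 31 had a reduced region (45.59%), 22 were in head-to-head pairs and 16 of those 22 were reduced (72.73%), and 21 were at divergent regions (30.88%). Their usual arrangement is an H2A gene head to head with an H2B gene. The 4 closest pairs were H2AC15/H2BC15 (170 bp apart, region of 5799 bp), H2BC4/H2AC6 (219 bp, 9349 bp), H2AC17/H2BC17 (240 bp, 8449 bp) and H2BC13/H2AC13 (244 bp, 9049 bp). Histone genes have similar copies, and reads that fit up to 20 places in the genome were kept at 1 of them. Reads from stretches that copies share cannot be assigned to 1 copy, and the part of such reads in these regions was not measured.

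Genes of DNA repair and cell division are next. Like the other groups, these were set by symbol series, so they can hold genes of other function. Of 134 DNA repair and checkpoint genes, 30 had a reduced region (22.39%), 39 were in head-to-head pairs (12 of them, 30.77%, reduced) and 19 were at divergent regions (14.18%). Among the closest were MRE11/ANKRD49 (94 bp apart), ERCC8/NDUFAF2 (104 bp) and RECQL/GOLT1B (112 bp), where MRE11 encodes a nuclease of double-strand breaks, ERCC8 a factor of transcription-coupled repair and RECQL a helicase. The region at MRE11/ANKRD49 ran 2000 and 2054 bp into its genes. Of 228 genes of DNA replication and cell division, 45 had a reduced region (19.74%), 11 of 40 in pairs did (27.5%) and 19 were at divergent regions (8.333%). AURKA, the mitotic kinase Aurora A, lay 34 bp from CSTF1, a subunit of the polyadenylation machinery, under 5349 bp. NDC80, a kinetochore protein, lay 48 bp from METTL4 under 5399 bp, CDC123 74 bp from NUDT5 under 5449 bp and the kinesin KIF18A 92 bp from METTL15 under 7749 bp.

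Genes of mitochondria and of protein synthesis are given in the same way. Of 238 genes of the mitochondrial ribosome, respiratory chain and import machinery, 24 had a reduced region (10.08%, near the 9.50% of all coding genes), 52 were in pairs and 10 of those were reduced (19.23%), and 16 were at divergent regions (6.723%). MRPL47 and NDUFB5, a mitochondrial ribosomal protein and a complex I subunit, lay 41 bp apart under 3799 bp. HELQ/MRPS18C (77 bp apart), ESF1/NDUFAF5 (88 bp) and RNF113A/NDUFA1 (99 bp) had regions of 3599, 3799 and 4699 bp. Of 185 genes of cytosolic translation, 40 had a reduced region (21.62%), 7 of 23 in pairs did (30.43%) and 12 were at divergent regions (6.486%). The closest were VPS52/RPS18 (28 bp apart), ATP6V1D/EIF2S1 (63 bp), RPS25/TRAPPC4 (72 bp) and RPL9/LIAS (73 bp), where EIF2S1 encodes the alpha subunit of the initiation factor eIF2. Ribosomal protein genes have many processed copies, to which the same limit on reads applies.

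RNA processing, protein turnover and transport genes made up the next groups, which were set by symbol series and so hold some genes of other function. Of 239 RNA processing genes, 56 had a reduced region (23.43%), 10 of 39 in pairs did (25.64%) and 21 were at divergent regions (8.787%). CBX5, which encodes HP1-alpha, and HNRNPA1 lay 60 bp apart under 7199 bp, of which 4672 bp were in HNRNPA1 and 2466 bp in CBX5. LRRC40/SRSF11 (103 bp apart) and HNRNPDL/ENOPH1 (128 bp) had 4299 and 8849 bp. Of 394 ubiquitin and proteasome genes, 56 were reduced (14.21%), 9 of 36 in pairs were (25%) and 16 were at divergent regions (4.061%), with FBXO8/CEP44 (63 bp apart), UBE2D3/CISD2 (78 bp), TRIM66/RPL27A (94 bp) and RNF113A/NDUFA1 the closest. Of 101 chaperone genes, 24 were reduced (23.76%), 4 of 19 in pairs were (21.05%) and 7 were at divergent regions (6.931%), with ATPSCKMT/CCT5 (32 bp apart), FUBP1/DNAJB4 (65 bp), THAP5/DNAJB9 (117 bp) and BAG1/CHMP5 (159 bp) the closest. Of 271 vesicle transport genes, 43 were reduced (15.87%), 8 of 28 in pairs were (28.57%) and 20 were at divergent regions (7.38%). EXOC5/AP5M1 (19 bp apart), STX10/IER2 (28 bp), VPS52/RPS18 and SNX5/MGME1 (38 bp) were the closest, and EXOC5 encodes a subunit of the exocyst that tethers secretory vesicles.

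Of 358 genes in the centrosome and cilium series, 47 were reduced (13.13%), 8 of 42 in pairs were (19.05%) and 25 were at divergent regions (6.983%), with WDR27/C6orf120 (59 bp apart), FBXO8/CEP44 and TTC23/LRRC28 (139 bp) the closest. The C2H2 zinc finger genes of the ZNF series had the lowest share: 28 of 558 were reduced (5.018%), 4 of 36 in pairs were (11.11%) and 6 were at divergent regions (1.075%), with ZNF790/ENSG00000291239 (71 bp apart), C17orf75/ZNF207 (109 bp), DOCK4/ZNF277 (288 bp) and LPXN/ZFP91 (843 bp) the closest. Of 86 collagen, laminin and integrin genes, 12 were reduced, and COL4A5 and COL4A6 were the only ones at a divergent region. Among 34 genes that the study names, 6 had a reduced region and 1, KDM5A, was at a divergent region. KDM5A is an H3K4 demethylase. Its region of 4899 bp covered the outermost starts of KDM5A and CCDC77, which overlap by 47 bp, while their canonical starts lie 12324 bp apart.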

How the data were processed

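The authors performed native ChIP-Seq of H3K4me3 on the MDA-MB-231 line, with 1 library each for input DNA, untreated cells, 1 μM Tat-SID and 2.5 μM Tat-SID. The authors aligned reads to hg19 with Bowtie (version 1.0.0), keeping 1 position for reads that fit up to 20 places, and called regions changed against the untreated library with SICER-df (its version is not given in the sources used here). The deposited lists hold region positions and no measured values. The false discovery rate behind them differs between the parts of the study's text. Depth per library is unknown here, and no interval covers differences between libraries.

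The lists were taken as BED intervals, with printed positions counted from 1, and compared with protein-coding genes of GENCODE release 44 mapped to GRCh37, by the outermost start of each gene. Pairs of starts, GC content, CpG ratio and motifs were computed from the GRCh37 sequence in Python (version 3.11.15) with pysam (version 0.24.0) and pandas (version 2.3.3). Shares carry exact Clopper-Pearson 95% intervals from scipy (version 1.17.1) that cover counting error over regions or genes only. No test was run across conditions, since each has 1 library. The search for opposite-strand starts was tested on simulated positions and found 200 of 200 planted regions with 0 wrong among 400.

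The regions, gene groups and motifs were chosen with earlier results of these data known. Named genes were the textbook pairs, the regions also on the 1 μM list, the 10 longest and 5 shortest, those with 4 or more coding starts, the 3 on either side of the 3 kb limit, up to 4 with the closest head-to-head starts in each gene group, and genes the study names. Uneven pairs were added after their values had been seen. Alternatives were the distance from region to start, the transcripts used for starts, readthrough genes, a minimum length and merging of nearby regions. A few genes that this rule names are not reported here.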

Additional observations from a re-analysis of the deposited data

How the results depend on the processing

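The number of divergent regions was 298 to 371 with distances of 0 bp to 10 kb between region and start in place of 3 kb, all coding transcript starts, no readthrough genes, a minimum length or merged regions. It was 204 when a head-to-head pair of starts was required and 176 when those had to lie within 1 kb. With canonical transcript starts, an alternative chosen after seeing the data, 264 regions met the rule, 94.32% of them were head to head in place of 63.41%, and the median distance between head-to-head starts was 349 bp in place of 167 bp. The other 30 of 34 alternative values, median length and GC content and the share of head-to-head pairs with a reduced region among them, stayed within 1.5 times the main count or within the main value's 95% interval, taken for a median from its order statistics. No paired analysis was possible because there is only 1 library of each kind, and no replicate could be left out. The lists hold no levels and the depth of the libraries is unknown here, so neither the size of any loss nor the power to call regions could be compared between promoters.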

Other observations

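Non-coding transcription starts were also present at the divergent regions. Of the 317 regions, 40 (12.62%, 9.17 to 16.78%) had the start of at least 1 annotated lncRNA within 3 kb, 47 starts in all. The same count was not made for the other reduced regions or for all head-to-head pairs. Whether this share is usual is therefore not known here, and nothing is read from it about the divergent regions. Among the 47 starts were CKAP2-DT at VPS36/CKAP2, ADM-DT at SBF2/ADM/AMPD3, where ADM encodes adrenomedullin, TXNDC12-AS1 at TXNDC12/BTF3L4, ASH1L-AS1 at ASH1L/MSTO1, where ASH1L is a histone methyltransferase, and PSMA3-AS1 at ARMH4/ARID4A, where ARID4A encodes a retinoblastoma-binding protein. The names were chosen after the list of starts had been seen, and whether these transcripts were made in MDA-MB-231 cells is not part of the lists. By canonical starts, SBF2/ADM, ASH1L/MSTO1 and ARMH4/ARID4A lie 10854, 47415 and 146342 bp apart. The region at VPS36/CKAP2 did not cover the outermost VPS36 start.

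A CpG promoter lay at the midpoint of the closest starts in 220 of the 317 regions (69.4%, 64.01 to 74.43%). This was near the 71.17% (585 of 822) of all head-to-head pairs with starts at most 1 kb apart. Among those pairs it was 73.45% (130 of 177) with and 70.54% (455 of 645) without a reduced region. GC content in the 2 kb around the midpoint of the 317 had a median of 53.47% (quartiles 50.32 and 58.22%). Whole regions, which reach several kb into the genes, had a median GC content of 45.42%, against 46.16% for regions with 1 coding start and 40.95% for those with none.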
